A study of Arabidopsis thaliana with 12 samples.

Results

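Mutation of BLISTER (BLI) in *Arabidopsis thaliana* seedlings was examined by comparing the *bli* single mutant with wild type (WT), using 6 of the 12 RNA-Seq libraries of the study (3 *bli* and 3 WT). The *bli* plants carried the *bli-1* T-DNA insertion in the Columbia background and WT plants were Columbia. Both were grown under long days on plates with Murashige and Skoog medium and sucrose, and received no stress treatment. The labels give an age of 12 days, whereas the methods of the study give a later age, and the methods describe the 3 libraries of a genotype as biological replicates. Whole seedlings were used, so fewer cells of a type and less RNA per cell cannot be told apart. The libraries were chosen by genotype alone and no measured value entered that choice.

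BLI is a plant protein that was first described as an interactor of the Polycomb group protein CURLY LEAF. Polycomb group proteins keep developmental genes silent through methylation of histone H3. In the unfolded protein response (UPR), accumulation of misfolded proteins in the endoplasmic reticulum (ER) activates transcription of chaperones, oxidoreductases and components of protein degradation. In plants this response runs through the RNA-splicing kinase IRE1, which acts on the mRNA of the transcription factor bZIP60, and through membrane-bound transcription factors such as bZIP28.

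Expression values of 33557 genes were deposited as FPKM, which scales the fragments of a gene to transcript length and sequencing depth. Summed FPKM were 981494 to 998639 in *bli* libraries and 1049857 to 1098800 in WT libraries, and 22488 to 23028 genes in *bli* and 22835 to 23077 genes in WT were above 0. The 10 genes with the highest FPKM took 8.37% to 9.3% of the sum in *bli* and 11.7% to 12.6% in WT. FPKM carry no read counts, so the counting error of a value is unknown. As a guide to depth, each library was compared with WT replicate 1 over genes above 0 and under 0.3 FPKM in both. The most common ratio was 0.595, 0.616 and 1.07 in *bli* replicates 1 to 3, and 0.616 and 0.574 in WT replicates 2 and 3. It is not a measure of the level of weakly expressed genes. *bli* replicate 3 and WT replicate 1 were also the libraries of their groups with the fewest sequenced reads. Across genes, libraries of the same genotype correlated with r of 0.944 to 0.960 and libraries of different genotypes with r of 0.903 to 0.921 (genes are not independent replicates).

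The mutated gene was examined first. *BLI* (AT3G23980) had 11.0, 11.8 and 9.95 FPKM in *bli*, against 16.8, 17.7 and 17.3 FPKM in WT. The groups did not overlap, and the gene was still detected in *bli*. On log2(FPKM + 0.1), the scale of all fold changes given here, *BLI* fell by 0.66 (SE 0.14, adjusted p = 0.00394, limma). *IRE1A* (AT2G17520) had 22.9, 22.9 and 24.2 FPKM in *bli*, against 15.04, 15.4 and 15.99 FPKM in WT, and was higher in *bli* by 0.59 (adjusted p = 0.000565, limma). *IRE1B* (AT5G24360, listed as *IRE1-1*) had 10.7, 10.9 and 11.4 FPKM in *bli* and 10.6, 9.21 and 9.64 FPKM in WT, and did not pass the test (adjusted p = 0.184, limma).

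Genes were tested where their FPKM averaged 0.5 or more across all 12 libraries, which held for 20645 genes. Of these, 857 (4.15%) rose at least 2-fold in *bli* and are called up-regulated, and 1048 (5.08%) fell at least 2-fold and are called down-regulated, each with a p, adjusted after Benjamini and Hochberg, no higher than 0.05. At the adjusted p alone, whatever the fold change, 3571 genes were higher (17.3%) and 3509 lower (17.0%). These 4 shares are the background for every count of a gene group given here. The median log2 fold change over all genes tested was -0.01. In 1863 of the 1905 called genes the 3 *bli* values and the 3 WT values did not overlap. At least 1 of the 6 libraries was listed at 0 FPKM for 101 called genes, and for these no fold change is quoted.

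**Figure D1:**
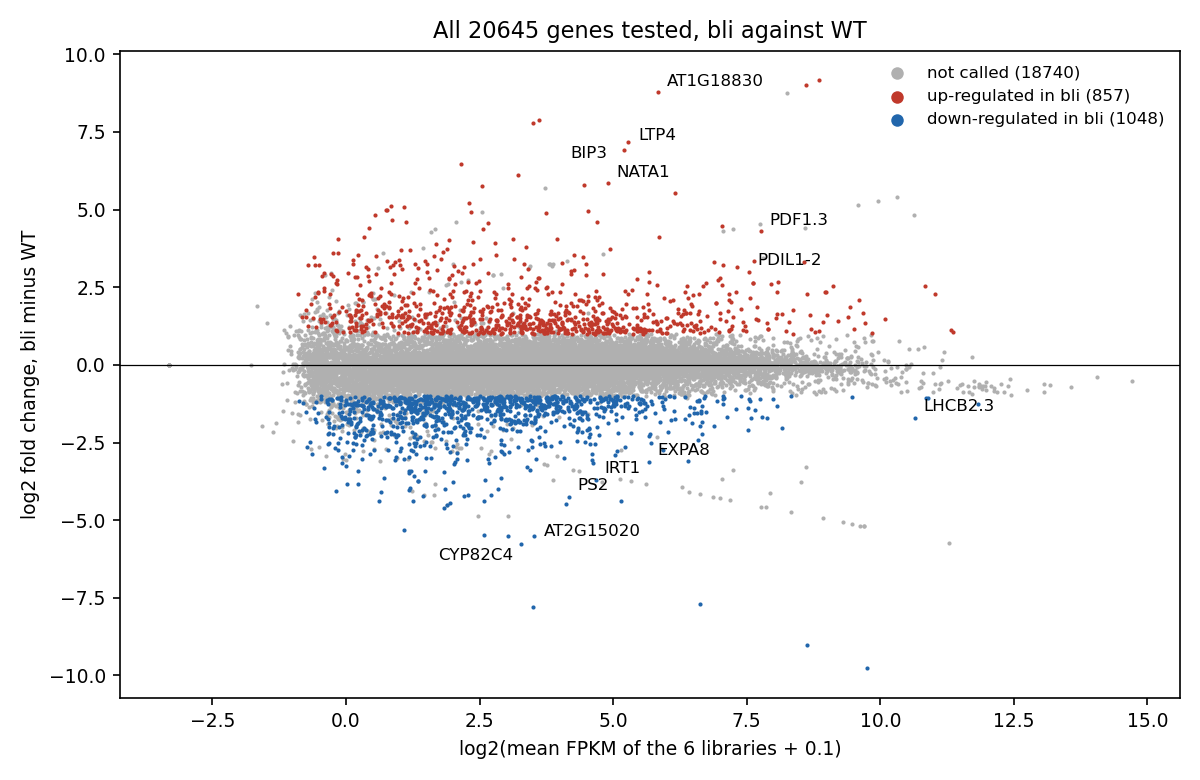
Log2 fold change of each gene tested (*bli* minus WT, y axis) against its mean level over the 6 libraries (x axis, log2 of FPKM + 0.1). Up-regulated genes (857) are red, down-regulated genes (1048) blue and the other genes grey. *AT1G18830*, *LTP4* and *BIP3* stand at 8.79, 7.17 and 6.93, and *AT2G15020* and *CYP82C4* at -5.52 and -5.49, while the 4 blue points lowest on the y axis are genes listed at 0 FPKM in all *bli* libraries.

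The largest rise among genes above 0 in every library was that of *AT1G18830* (*SEC31A*), which encodes a WD40 repeat protein related to the outer coat of vesicles that leave the ER. It had 112.9, 118.5 and 112.0 FPKM in *bli*, against 0.182, 0.114 and 0.188 FPKM in WT (log2 fold change 8.79, SE 0.15, adjusted p = 2.62e-11, limma). The *bli* values lay close together, and every WT value was below 0.2 FPKM. *NAC103* (AT5G64060), a NAC transcription factor that acts downstream of bZIP60, had 43.8, 45.7 and 39.5 FPKM in *bli* and 0.487, 0.696 and 0.880 FPKM in WT (5.80, SE 0.19, adjusted p = 1e-08, limma). *NATA1* (AT2G39030), an N-acetyltransferase that acts on ornithine, had 60.9, 51.2 and 64.4 FPKM in *bli* and 1.24, 0.949 and 0.637 FPKM in WT (5.86). The other large rises were those of the lipid transfer protein gene *LTP4* (7.17), the transcribed pseudogene *AT4G21730* (5.55), *AT1G17960*, which encodes a threonyl-tRNA synthetase (4.89), and the defensin gene *PDF1.4* (4.59). *AT2G05914* also stood among them (5.21), but it lies across 450 bases of *AT2G05915* on the other strand, and the use of strand in counting is not given in the sources used here, so the reads of this pair cannot be told apart.

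The largest falls among genes above 0 in every library included several genes of iron and phosphate supply. *AT2G15020*, an uncharacterized gene, had 1.48, 0.109 and 0.188 FPKM in *bli*, against 32.4, 14.9 and 18.7 FPKM in WT (-5.52, SE 0.67, adjusted p = 0.000103, limma). *CYP82C4* (AT4G31940), a cytochrome P450 of the iron deficiency response, had 0.293, 0.0388 and 0.200 FPKM in *bli* and 8.51, 11.8 and 14.3 FPKM in WT (-5.49). All 3 *bli* values of *CYP82C4* were under 0.3 FPKM. *AT3G46370*, a leucine-rich repeat protein kinase gene, fell by 4.19, *PRB1*, a basic pathogenesis-related gene, fell by 4.19, and *AT2G47880*, a glutaredoxin gene, fell by 4.47, although 243 bases of *AT2G47880* overlap *AT2G47885* on the other strand. Chosen after its values were seen, *ATL15* (AT1G22500), a RING-finger gene, was listed at 0 FPKM in all 3 *bli* libraries, against 19.9, 25.7 and 21.4 FPKM in WT.

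**Figure D2:**
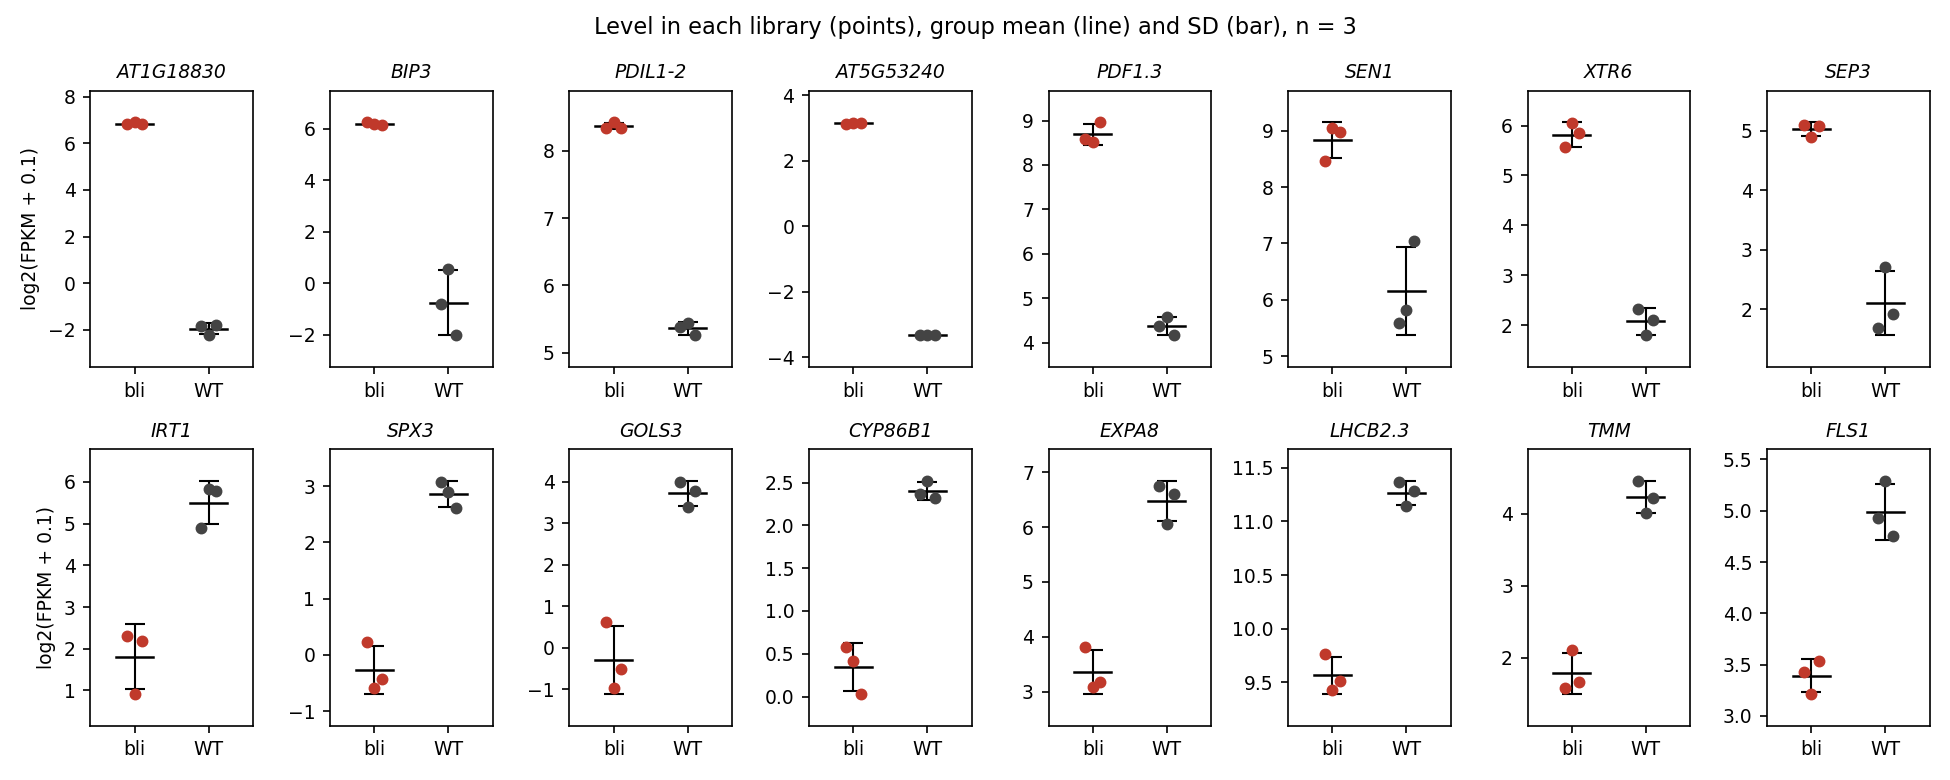
Level of 16 named genes in each of the 3 *bli* libraries (red) and the 3 WT libraries (dark grey), with log2(FPKM + 0.1) on the y axis, the group mean as a line and the SD as a bar; each panel has its own y axis. The upper row shows genes up-regulated in *bli* and the lower row genes down-regulated in *bli*, and in all 16 panels the groups do not overlap.

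Genes of protein folding in the ER rose together. Of 23 tested genes of ER chaperones, lectin chaperones, J-domain proteins, protein disulfide isomerases and ER oxidoreductins, 9 were up-regulated and none down-regulated, 21 were higher at adjusted p alone, and the median log2 fold change was 0.85. *BIP3* (AT1G09080), the stress-inducible HSP70 chaperone of the ER, had 76.0, 72.5 and 70.1 FPKM in *bli*, against 0.477, 1.36 and 0.152 FPKM in WT (6.93, SE 0.45, adjusted p = 1.68e-06, limma). Its relatives *BIP1* and *BIP2*, which are also expressed without stress, rose by 1.095 and 1.15. *ERDJ3A* (AT3G08970, listed as *ATERDJ3A*), a J-domain partner of BiP, had 47.0, 42.4 and 44.0 FPKM in *bli* and 1.09, 1.33 and 1.69 FPKM in WT (4.94). *PDIL1-2* (AT1G77510), a protein disulfide isomerase, had 324.5, 342.4 and 323.9 FPKM in *bli*, against 41.6, 43.4 and 38.2 FPKM in WT (3.01, SE 0.06). *ERO1* (AT1G72280), which reoxidizes these isomerases, had 20.7, 18.7 and 20.4 FPKM in *bli* and 4.004, 2.71 and 4.42 FPKM in WT (2.42). The calreticulin genes *CRT1a* and *CRT1b* were higher by 0.44 and 0.43, whereas *CRT3* (0.04) and *PDIL1-4* (0.11) did not pass the test.

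Of 12 tested genes of ER-associated degradation, 8 were higher and none lower, with a median of 0.60. The lectin gene *OS9* was the 1 up-regulated member (1.05), and it was not called without WT replicate 1, *bli* replicate 2 or *bli* replicate 3. *CDC48* (AT3G09840), the ATPase that draws substrates out of the ER membrane, had 218.1, 206.9 and 209.2 FPKM in *bli* and 178.4, 181.1 and 180.9 FPKM in WT, and was higher by 0.23 (adjusted p = 0.00139, limma). Of 9 tested p24 genes, which encode cargo receptors between the ER and Golgi, 2 were up-regulated and 5 higher. *AT2G03040* had the largest change (2.95), but its mean over the 6 libraries was under 1 FPKM. The 2 came to 1 under quantile normalization, under upper-quartile scaling, with a pseudocount of 1 FPKM and with a least mean of 1 FPKM. Of 9 genes of ER stress survival and cell death, 2 were up-regulated, 3 were higher and 6 did not pass the test, with a median of 0.15. *BI1* (AT5G47120), which encodes the ER-resident cell death suppressor BAX INHIBITOR 1, had 209.3, 213.4 and 231.2 FPKM in *bli*, against 65.8, 70.3 and 60.6 FPKM in WT (1.73). *NAC089*, a membrane-bound NAC transcription factor with a role in ER stress-induced cell death, rose by 1.26.

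The promoters of 2 folding genes and that of *AT1G18830* are shown because these genes had among the largest rises and hold motifs of the UPR. Each line gives the 300 bases before the annotated gene start on the coding strand, from the RefSeq genome TAIR10.1. Capitals mark the ER stress response element ERSE-I (CCAAT, any 10 bases, then CACG, on either strand) in *BIP3* and *PDIL1-2*, and the UPR element UPRE (TGACGTG) in *AT1G18830*. The windows are chr1:2931851-2932150 on the minus strand, chr1:29126348-29126647 on the plus strand and chr1:6488933-6489232 on the plus strand.
BIP3: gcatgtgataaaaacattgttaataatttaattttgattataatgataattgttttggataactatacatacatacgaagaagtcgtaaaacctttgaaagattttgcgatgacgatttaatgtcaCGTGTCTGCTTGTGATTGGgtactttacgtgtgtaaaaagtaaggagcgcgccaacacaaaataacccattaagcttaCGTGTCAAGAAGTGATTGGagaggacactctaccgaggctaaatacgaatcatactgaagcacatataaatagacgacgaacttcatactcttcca
PDIL1-2: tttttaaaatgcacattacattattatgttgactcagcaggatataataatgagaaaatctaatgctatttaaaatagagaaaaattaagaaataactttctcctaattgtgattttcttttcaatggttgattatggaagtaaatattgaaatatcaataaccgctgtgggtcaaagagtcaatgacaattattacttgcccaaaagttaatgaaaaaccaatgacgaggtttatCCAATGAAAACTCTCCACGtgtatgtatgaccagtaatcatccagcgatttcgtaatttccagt
AT1G18830: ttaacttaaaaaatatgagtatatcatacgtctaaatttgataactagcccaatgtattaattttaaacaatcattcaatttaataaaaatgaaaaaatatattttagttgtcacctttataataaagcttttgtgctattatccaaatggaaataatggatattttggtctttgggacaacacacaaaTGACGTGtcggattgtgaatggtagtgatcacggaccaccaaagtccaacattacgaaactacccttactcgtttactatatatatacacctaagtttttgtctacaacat
The 2 ERSE-I matches of *BIP3* ended 156 and 78 bases before the start, and both read on the reverse strand. ERSE-I was found in 7 of the 23 promoters of the folding list (30.4%), against 0.938% of the 20463 promoters of tested genes, and UPRE in 6 of 23 (26.1%), against 3.52%. Among the promoters of the 9 up-regulated folding genes, 2 held ERSE-I and 2 held UPRE. Over all up-regulated genes ERSE-I stood in 1.76% of promoters and UPRE in 5.87%. UPRE was not particular to the folding list, as it also stood in 6 of the 14 promoters of circadian clock genes (42.9%). A match is a stretch of letters and was not tested for binding, and UPRE overlaps the shorter motif ACGTG.

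Proteins with a domain of unknown function, DUF295, form a family that was singled out after its values were seen. In *Arabidopsis* many proteins of this family are predicted to enter mitochondria or chloroplasts, and some of their genes respond to mitochondrial dysfunction. Of 27 DUF295 genes without F-box in the product name, 11 passed the filter on low values, of which 7 were up-regulated and 1 was down-regulated. A member that passed the filter only through its level in a mutant had to differ, so these counts and the median of the 11 (3.41) are given as a description and are not set against the background. Of 38 genes named as F-box proteins with DUF295, 8 were tested and none was called.

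*AT5G53240* had 8.53, 8.81 and 8.82 FPKM in *bli* and was listed at 0 FPKM in all 3 WT libraries. *AT1G30170* had 3.57, 3.68 and 2.92 FPKM in *bli* and was also listed at 0 FPKM in all WT libraries. *AT5G54560* had 3.10, 4.33 and 4.61 FPKM in *bli*, against 0, 0.0747 and 0 FPKM in WT. In each of these 3 genes every *bli* value was above every WT value. *AT5G55270* had 18.3, 19.6 and 17.0 FPKM in *bli*, against 0.295, 0.123 and 0.113 FPKM in WT (6.11, SE 0.44, adjusted p = 3.24e-06, limma). *AT5G53230* had 10.7, 6.77 and 11.6 FPKM in *bli* and 0.240, 0.0754 and 0.417 FPKM in WT (4.93), and *AT4G13680* had 6.25, 5.80 and 6.40 FPKM in *bli* and 0.758, 0.297 and 0.492 FPKM in WT (3.41). The smallest rise was that of *AT1G30160*, which overlaps 57 bases of *AT1G30170* on the other strand. One member went the other way, as *AT1G05540* had 0.741, 0.665 and 0.519 FPKM in *bli*, against 3.78, 2.43 and 2.34 FPKM in WT (-1.97).

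**Figure D3:**
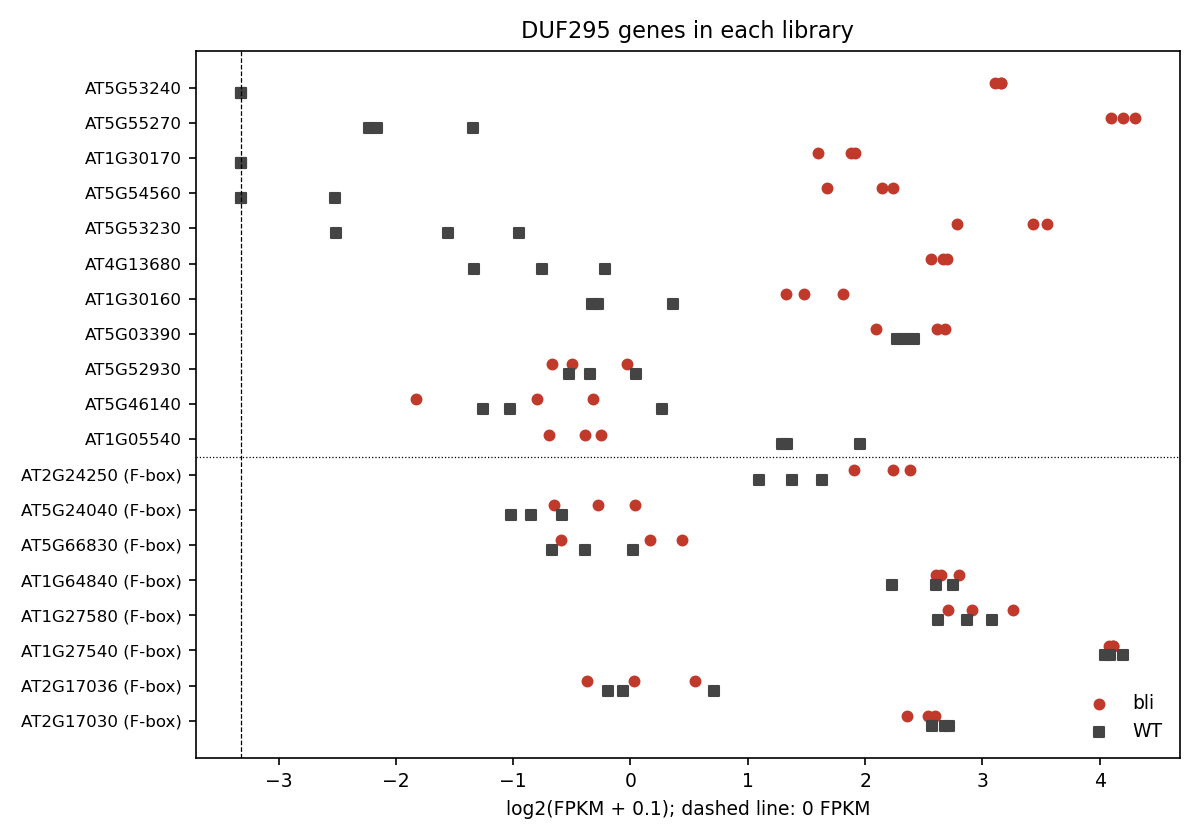
Level of the 11 tested DUF295 genes without F-box in their product name (above the dotted line) and the 8 with it (below), in each *bli* library (red circles) and WT library (grey squares), as log2(FPKM + 0.1) on the x axis; the dashed line is 0 FPKM. In 7 genes of the upper part all *bli* points lie to the right of the WT points, 2 of these genes have all 3 WT points at 0 FPKM, and in *AT1G05540* the order is the reverse.

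The promoters of 2 of these genes are shown because both hold the mitochondrial dysfunction motif (MDM), the target of the ANAC017 group of transcription factors. Capitals mark CTTG, any 5 bases, then CANG, which matches on both strands here. The windows are chr5:21601181-21601480 and chr5:22418847-22419146, both on the plus strand of TAIR10.1, and 144 bases of the second lie within the neighbouring gene *AT5G55260*.
AT5G53240: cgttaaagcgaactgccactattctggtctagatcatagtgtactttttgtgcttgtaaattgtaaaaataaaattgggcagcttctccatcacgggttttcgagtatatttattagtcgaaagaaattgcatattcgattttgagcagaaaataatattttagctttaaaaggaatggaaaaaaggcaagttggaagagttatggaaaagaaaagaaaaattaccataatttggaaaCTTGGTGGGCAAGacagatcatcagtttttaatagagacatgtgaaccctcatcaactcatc
AT5G55270: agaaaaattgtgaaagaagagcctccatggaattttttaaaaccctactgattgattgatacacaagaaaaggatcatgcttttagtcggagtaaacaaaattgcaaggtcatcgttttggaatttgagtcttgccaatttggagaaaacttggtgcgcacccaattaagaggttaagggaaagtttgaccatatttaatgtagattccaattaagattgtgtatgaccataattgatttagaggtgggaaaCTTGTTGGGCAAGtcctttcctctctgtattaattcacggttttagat
MDM was found in the promoters of 4 of the 11 tested DUF295 genes without F-box (36.4%). Of these 4 genes, 3 were among the 7 up-regulated. MDM stood in 1.71% of all promoters and in 4.34% of the promoters of all up-regulated genes. The family was chosen after its values were seen, and the promoters of its untested members were not counted. Its share is therefore a description and is not set against that of all promoters. A link between MDM and the rise of these genes was not tested. In a list of 14 tested genes of oxidative and mitochondrial stress, 6 were up-regulated and none down-regulated, with a median of 0.87. *AOX1A*, the alternative oxidase gene most used as a reporter of mitochondrial dysfunction, did not pass the test (-0.11), whereas *BCS1* (AT3G50930), an outer mitochondrial membrane AAA protein gene, had 15.4, 15.03 and 12.1 FPKM in *bli* and 6.78, 5.33 and 6.71 FPKM in WT (1.17). The superoxide dismutase genes *CSD1* and *CSD2* rose by 1.496 and 1.55, and *RHL41*, which encodes the zinc finger protein ZAT12, rose by 2.02.

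Of 27 tested genes of jasmonate synthesis and response, 13 were up-regulated, none was down-regulated and 12 did not pass the test, with a median of 1.09. The count was 8 without WT replicate 2 and 8 without *bli* replicate 2. *PDF1.2* (AT5G44420), a plant defensin gene induced by jasmonate together with ethylene, had 348.7, 326.1 and 406.7 FPKM in *bli*, against 27.1, 42.0 and 39.0 FPKM in WT (3.34, SE 0.15, adjusted p = 9.11e-08, limma). *PDF1.2c* (AT5G44430) had 108.5, 103.9 and 116.3 FPKM in *bli* and 4.42, 7.64 and 7.19 FPKM in WT (4.11), and *PDF1.3* (AT2G26010) had 381.9, 367.7 and 497.2 FPKM in *bli* and 20.5, 23.8 and 17.9 FPKM in WT (4.31). In each of these defensin genes every *bli* value lay far above every WT value. Of 19 tested defensin genes, 6 were up-regulated and the other 13 did not pass the test. *ERF1* and *ORA59*, the transcription factors that join the jasmonate and ethylene signals on *PDF1.2*, rose by 1.55 and 1.18, and *LOX2*, an early enzyme of jasmonate synthesis, by 2.33.

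The jasmonate genes did not move as a block. *TAT3*, a tyrosine aminotransferase gene, had 44.4, 32.5 and 38.6 FPKM in *bli* and 2.88, 8.76 and 1.42 FPKM in WT (3.48). The master regulator *MYC2* (0.13), the synthesis genes *AOS* (-0.25) and *OPR3* (0.22) and the storage protein gene *VSP2* (-0.76) did not pass the test. Of 10 *JAZ* genes, which encode repressors of jasmonate response, 4 were up-regulated. Only *JAZ10* (1.87) was still called without WT replicate 2, *bli* replicate 1 or *bli* replicate 2. In a list of 22 salicylic acid defence genes, 2 were up-regulated and 1 down-regulated, with a median of -0.14. *PR5* (AT1G75040), a thaumatin-like protein gene, had 9.29, 9.34 and 6.46 FPKM in *bli*, against 32.1, 25.6 and 25.2 FPKM in WT (-1.72). *SAG101*, a partner of EDS1, had 27.4, 28.3 and 25.2 FPKM in *bli* and 12.3, 11.1 and 11.9 FPKM in WT (1.19), and *PR1* did not pass the test (-1.02).

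Transcription factor and receptor families with roles in defence had more rises than falls. Of 59 tested *WRKY* genes, 13 were up-regulated and 26 higher, and 2 were down-regulated. *WRKY45* (AT3G01970) had 39.5, 47.0 and 44.9 FPKM in *bli*, against 9.53, 9.10 and 9.80 FPKM in WT (2.19, SE 0.08, adjusted p = 2.24e-08, limma), and *WRKY26* rose by 1.95. Of 70 tested *NAC* genes, 15 were up-regulated. *NAC044* (AT3G01600), which acts in cell cycle arrest after DNA damage, had 10.7, 9.67 and 7.61 FPKM in *bli* and 1.03, 1.05 and 0.645 FPKM in WT (3.24), and *NAC047* rose by 2.28. The 5 *NAC* genes called down-regulated came to 1 with a pseudocount of 1 FPKM, to 0 without WT replicate 3 and to 2 without WT replicate 1, *bli* replicate 2 or *bli* replicate 3. Among cell surface and intracellular receptors, 7 of 41 receptor-like protein genes (17.1%), 4 of 29 cysteine-rich receptor-like kinase genes (13.8%) and 5 of 65 TIR-NBS-LRR genes (7.69%) were up-regulated. Higher genes made up 31.7%, 27.6% and 15.4% of these groups in the same order, against 17.3% of all genes tested. The TIR-NBS-LRR share was thus below the background, and the median of that group was 0.16. Down-regulated members numbered 2 among the receptor-like protein genes and 0 in the other groups. With a pseudocount of 1 FPKM the up-regulated receptor-like protein genes were 2 in place of 7 and the TIR-NBS-LRR genes 3 in place of 5, and the TIR-NBS-LRR count was also 3 without *bli* replicate 2. *RLP22* rose by 2.78 and *CRK13* by 2.21. Of 63 genes of Cys/His-rich C1 domain proteins, 12 were up-regulated and 4 down-regulated (6.35%), 16 were higher and 9 lower, and the median was 0.02. The largest rise was that of *AT2G17740* (32.5, 32.1 and 34.0 FPKM in *bli*, 3.35, 4.99 and 3.64 FPKM in WT, 3.03). The W-box core (TTGACC or TTGACT), the binding motif of WRKY proteins, stood in the promoters of 10 of the 12 up-regulated genes (83.3%) and of 37 of all 63 (58.7%), against 32.1% of all promoters. With a pseudocount of 1 FPKM, 6 C1 domain genes were up-regulated and 0 down-regulated.

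Of 11 tested senescence genes, 6 were up-regulated and 9 higher, with a median of 1.19. The 1 gene called down-regulated, the transcription factor gene *NAP* (-1.02), was not called without WT replicate 3 or *bli* replicate 3. *SEN1* (AT4G35770), a gene induced by darkness and sugar depletion, had 354.3, 527.3 and 506.1 FPKM in *bli*, against 48.0, 56.5 and 132.4 FPKM in WT (2.68). *DIN10* (AT5G20250), a raffinose synthase-like gene, had 310.3, 518.3 and 492.3 FPKM in *bli* and 49.8, 86.9 and 139.8 FPKM in WT (2.34), and *DIN2*, a beta-glucosidase gene, rose by 2.64. For both *SEN1* and *DIN10*, replicate 3 was the highest of the WT libraries and replicate 1 the lowest of the *bli* libraries. *ASN1* (AT3G47340), the asparagine synthetase gene induced in darkness, had 103.4, 188.9 and 151.8 FPKM in *bli* and 29.1, 19.2 and 47.7 FPKM in WT (2.26). *SAG13* rose by 2.11, whereas *SAG12*, the marker of late leaf senescence, was listed at 0 FPKM in all 6 libraries. *NYE1*, the chlorophyll breakdown gene also called *SGR1*, did not pass the test (0.12). Among 13 tested genes of nitrogen supply, *ASN1* was the 1 up-regulated member, and the nitrate transporter genes *NRT2:1* and *NRT1.5* were down-regulated (-2.18 and -1.47). Of 36 tested UMAMIT amino acid exporter genes, 7 were up-regulated and 2 down-regulated, 9 were higher and 10 lower, and the median was -0.07. *UMAMIT20* had 60.0, 73.8 and 66.6 FPKM in *bli* and 22.9, 23.1 and 26.7 FPKM in WT (1.46).

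In a list of 15 tested heat shock genes, 5 were up-regulated and none down-regulated, with a median of 0.74. These were the transcription factor genes *HSFA2* (2.14), *HSFA7A* (1.74) and *DREB2A* (1.99), the coactivator gene *MBF1C* (1.09) and *HSP18.2* (1.16). In 4 of these 5 genes the *bli* and WT values did not overlap, whereas those of *HSFA2* did. The count of up-regulated genes was 3 without WT replicate 3 and 3 without *bli* replicate 1. *HSFA7A* (AT3G51910) had 27.4, 35.9 and 32.1 FPKM in *bli*, against 5.87, 12.2 and 11.6 FPKM in WT. The chaperone genes that heat shock factors drive most strongly, *HSP101* (-0.17), *HSP70* (-0.55), *HSP90.1* (0.45) and *HSP17.6A* (-0.15), did not pass the test. Of 28 tested small heat shock protein genes, 2 were up-regulated and 2 down-regulated.

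Genes of phosphate starvation fell. Of 16 tested genes that rise when phosphate runs short, 10 were down-regulated (62.5%), 12 were lower, and the median was -1.70. *PS2* (AT1G73010), a phosphatase gene, had 4.05, 1.54 and 0.691 FPKM in *bli*, against 43.9, 31.6 and 26.0 FPKM in WT (-4.24, SE 0.50, adjusted p = 8.83e-05, limma). *MGD3* (AT2G11810, listed as *MGDC*), which makes galactolipid in place of phospholipid, had 0.683, 0.274 and 0.234 FPKM in *bli* and 10.1, 8.83 and 7.001 FPKM in WT (-4.23). *SPX3* (AT2G45130), an intracellular phosphate sensor gene, had 1.07, 0.566 and 0.647 FPKM in *bli* and 8.29, 7.37 and 6.02 FPKM in WT (-3.12). The non-coding RNA gene *IPS1*, a target mimic of miR399, fell by 3.64, and *SQD2*, a sulfolipid synthesis gene, fell by 1.48. The high-affinity transporter genes *PHT1;1* (-0.31) and *PHT1;4* (-0.39) and the acid phosphatase gene *PAP17* (-0.65) did not pass the test. *RNS1*, a ribonuclease gene of phosphate starvation and wounding, was the 1 member that rose (2.29).

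The promoters of *SPX3* and *PS2* are shown because they hold the P1BS motif, the site of the phosphate starvation factor PHR1. Capitals mark GNATATNC, whose pattern reads the same on both strands. The windows are chr2:18606110-18606409 on the plus strand and chr1:27466349-27466648 on the minus strand of TAIR10.1.
SPX3: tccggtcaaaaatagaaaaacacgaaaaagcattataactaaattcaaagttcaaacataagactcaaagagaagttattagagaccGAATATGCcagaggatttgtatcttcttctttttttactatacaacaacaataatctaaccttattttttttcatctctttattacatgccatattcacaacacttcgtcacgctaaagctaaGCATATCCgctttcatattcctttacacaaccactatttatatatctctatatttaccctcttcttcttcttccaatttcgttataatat
PS2: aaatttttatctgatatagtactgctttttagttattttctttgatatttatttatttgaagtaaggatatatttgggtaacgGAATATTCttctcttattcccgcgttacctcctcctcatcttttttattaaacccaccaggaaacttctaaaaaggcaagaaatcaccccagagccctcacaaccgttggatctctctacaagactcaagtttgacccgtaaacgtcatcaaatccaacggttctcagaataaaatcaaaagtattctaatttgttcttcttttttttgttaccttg
P1BS was found in the promoters of 5 of the 16 tested phosphate genes, all 5 among the 10 down-regulated ones. The share was 6.61% of the 20463 promoters, 7.75% of those of all down-regulated genes and 9.15% of those of all up-regulated genes.

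Iron genes moved in both directions. Of 24 tested, 2 were up-regulated and 6 down-regulated, and 7 were higher and 6 lower. Their log2 fold changes reached from -4.62 to 1.88. The genes of iron uptake at the root surface fell. *IRT1* (AT4G19690), the iron transporter gene, had 4.87, 1.79 and 4.47 FPKM in *bli*, against 29.9, 56.4 and 55.2 FPKM in WT (-3.70), and *FRO2* (AT1G01580), the ferric chelate reductase gene, had 0.449, 0.393 and 0.434 FPKM in *bli* and 4.68, 8.19 and 9.15 FPKM in WT (-3.77). The nicotianamine synthase gene *NAS2* fell by 4.62 and *NAS4* by 1.37, whereas *NAS1* and *NAS3* were higher by 0.39 and 0.51. *FRU* (also called *FIT*), which encodes the transcription factor upstream of *IRT1* and *FRO2*, did not pass the test (-0.85). Some genes of iron handling inside the plant were higher. The transporter gene *OPT3* was higher by 0.62, the ubiquitin ligase gene *BTS* by 0.48 and the reductase gene *FRO3* by 1.00. Apart from this group, *AT1G47395*, another gene of the list, had 34.5, 28.1 and 37.5 FPKM in *bli* and 10.4, 10.2 and 15.98 FPKM in WT (1.47). The ferritin gene *FER1* fell by 1.02. Without *bli* replicate 1 or *bli* replicate 3 the count of higher genes was 4 in place of 7, and without WT replicate 2 or *bli* replicate 3 the count of up-regulated genes was 1 in place of 2. Root markers moved in part in the same libraries. Of 5 root hair markers, *EXPA18* was down-regulated (-1.03), and *EXPA7* (-0.98), *RSL4* (-0.66), *COBL9* (-0.47) and *PRP3* (-0.01) did not pass the test. Their summed FPKM, most of which came from *PRP3*, was 38.5 to 55.7 in *bli* and 48.6 to 66.1 in WT. Of 3 root cap markers, *BRN2* was down-regulated (-1.002), and *BRN1* (-0.95) and *SMB* (0.08) did not pass the test, with sums of 0.834 to 1.93 FPKM in *bli* and 2.06 to 2.37 FPKM in WT. The sum of 6 endodermis markers was 47.2 to 81.9 FPKM in *bli* and 53.8 to 71.8 FPKM in WT. The part of these tissues in the change of the iron uptake genes was not tested.

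Genes of the abscisic acid (ABA) and cold response formed the largest of the 26 lists and had the most falls by number. Of 32 tested genes, 16 were down-regulated, 20 were lower, and the median was -1.11. The share of down-regulated genes was larger in the suberin list (77.8%) and the phosphate list (62.5%). With any 1 library left out, 13 to 23 genes of the ABA and cold list were down-regulated. *GolS3* (AT1G09350), a galactinol synthase gene of cold acclimation, had 1.44, 0.410 and 0.604 FPKM in *bli*, against 15.8, 10.4 and 13.6 FPKM in WT (-4.01, SE 0.38, adjusted p = 1.87e-05, limma). *COR15A* (AT2G42540), which encodes a chloroplast cryoprotective protein, had 20.7, 10.3 and 12.8 FPKM in *bli*, against 191.5, 39.1 and 231.9 FPKM in WT (-3.10). WT replicate 2 was the lowest WT library for *COR15A*, and it still lay above all *bli* libraries. *DREB1A* (AT4G25480, also called *CBF3*) had 0.901, 0.287 and 0.327 FPKM in *bli* and 6.72, 3.06 and 2.92 FPKM in WT (-2.87), whereas its neighbours *CBF1* (-0.66) and *CBF2* (0.20) did not pass the test. Among ABA genes, *NCED3*, the gene of the rate-limiting step of ABA synthesis, fell by 2.09 and the dehydrin gene *RAB18* fell by 2.43. The phosphatase genes *ABI2* (-1.198) and *PP2CA* (-1.12) fell, while *RD20* (-0.11) and *RD26* (-0.38) did not pass the test. The cold response core CCGAC was found in the promoters of 7 of the 16 down-regulated members (43.8%) and of 11 of all 32 (34.4%), against 14.9% of all promoters. The ABA response core ACGTG was found in 10 of the 16 (62.5%) and 19 of the 32 (59.4%), against 26.4%. ACGTG was not particular to this list. It also stood in 16 of the 23 promoters of the folding list and in 9 of the 14 promoters of clock genes, which are larger shares. In the phosphate list it stood in 4 of 16 promoters.

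Only *COR27* and *AT4G33980* of this list were up-regulated. *COR27* (AT5G42900), a cold-regulated gene that is also under the circadian clock, had 5.02, 8.49 and 7.68 FPKM in *bli*, against 0.124, 0.386 and 0.644 FPKM in WT (4.02). *AT4G33980* had 11.2, 22.3 and 20.7 FPKM in *bli*, against 1.19, 1.70 and 2.47 FPKM in WT (3.26). The core clock list had 3 up-regulated and 4 down-regulated genes among 14. The up-regulated members peak from afternoon to evening, with *FKF1* (AT1G68050) at 5.01, 8.41 and 9.87 FPKM in *bli* and 1.15, 2.81 and 2.13 FPKM in WT (1.91), *LUX* (AT3G46640, listed as *PCL1*) at 1.31 and *PRR5* at 1.15. The down-regulated members named here peak in the morning, with *CCA1* (AT2G46830) at 22.3, 12.95 and 12.7 FPKM in *bli* and 47.4, 33.1 and 41.9 FPKM in WT (-1.39), *PRR9* at -2.04 and *RVE8* at -1.45. The evening genes *GI* (0.08) and *ELF4* (0.26) did not pass the test. *LUX* overlaps 1507 bases of *AT3G46650* on the other strand. The hour at which each seedling was collected is not given in the sources used here, so a difference in the time of collection was not tested. The evening element AAAATATCT, searched on both strands of the 300 bases before the gene start, was found in the promoters of all 3 up-regulated clock genes and of 5 of the 14 clock genes tested (35.7%), against 2.93% of all promoters.

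**Figure D4:**
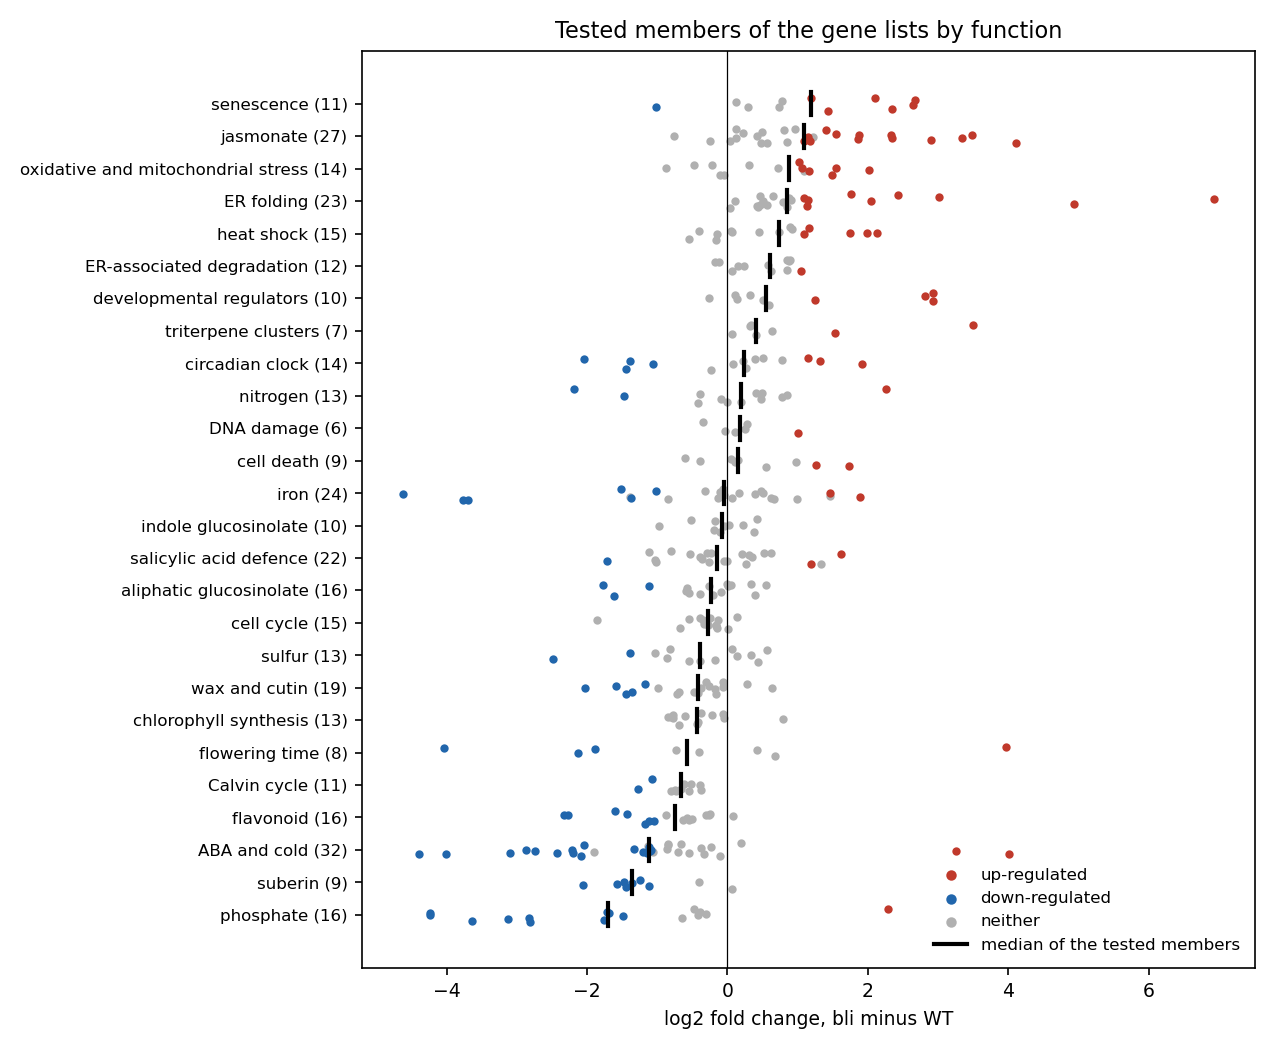
Log2 fold change (*bli* minus WT, x axis) of the tested members of 26 gene lists by function, 1 row per list with the number tested in brackets, ordered by the median (black bar). Up-regulated members are red, down-regulated members blue and others grey. The medians reach from 1.19 for senescence to -1.70 for phosphate, and suberin and phosphate have blue points for most of their members.

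Suberin genes and some cutin genes fell. Of 9 tested suberin genes, 7 were down-regulated (77.8%), with a median of -1.36. *CYP86B1* (AT5G23190), a fatty acid hydroxylase gene of suberin, had 1.40, 1.23 and 0.923 FPKM in *bli*, against 5.06, 5.64 and 4.89 FPKM in WT (-2.06), and *CYP86A1* (AT5G58860) had 8.01, 5.42 and 8.71 FPKM in *bli* and 21.2, 21.3 and 22.5 FPKM in WT (-1.57). The feruloyl and caffeoyl transferase genes *RWP1* and *FACT* fell by 1.47 and 1.45. In the same libraries the 6 endodermis markers had a median log2 fold change of -0.06, and 1 of them (*CASP5*) was up-regulated. Of 19 tested wax and cutin genes, 5 were down-regulated and none up-regulated, with a median of -0.43. These were genes of cutin (*GPAT6*, -1.36, *CYP86A4*, -1.45, *CYP77A6*, -1.17, *PEL3*, -1.59) and their regulator *MYB106* (-2.02, with 1579 bases under *AT3G01142* on the other strand). The wax synthesis genes *CER1* (-0.07) and *CER4* (-0.31) did not pass the test, and *CER3* was higher by 0.64. Of 51 tested GDSL lipase genes, 8 were down-regulated and 3 up-regulated, and the cutinase-like gene *CDEF1* had 6.90, 8.08 and 7.49 FPKM in *bli* and 59.6, 47.0 and 66.7 FPKM in WT (-2.92). Lipid transfer protein genes moved both ways, with 10 of 65 up-regulated and 13 down-regulated. *LTP4* had 56.8, 112.4 and 62.9 FPKM in *bli*, against 0.275, 0.516 and 0.480 FPKM in WT, and *LTP3* had 68.3, 136.1 and 88.5 FPKM in *bli*, against 12.2, 16.2 and 18.9 FPKM in WT (2.59).

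Markers of the epidermis moved in the same libraries. Of 8 genes of the stomatal lineage and guard cells, 5 were down-regulated and 7 lower, with a summed FPKM of 33.8 to 38.8 in *bli* and 87.3 to 96.5 in WT. *TMM*, a receptor gene of stomatal patterning, had 2.89, 4.21 and 3.07 FPKM in *bli*, against 21.8, 16.02 and 18.6 FPKM in WT (-2.45). Of 3 trichome genes, 2 were down-regulated, with a summed FPKM of 3.28 to 4.38 in *bli* and 8.27 to 9.84 in WT. The part of these cell types in the fall of cutin genes was not tested.

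Some genes of auxin response and cell expansion fell. Of 61 tested *SAUR* genes, which respond early to auxin and promote cell expansion, 21 were down-regulated (34.4%) and 26 lower, with a median of -0.68. *SAUR20* (AT5G18020) had 4.26, 1.70 and 1.91 FPKM in *bli*, against 18.7, 12.3 and 16.3 FPKM in WT (-2.64, SE 0.31, adjusted p = 8.63e-05, limma), and *SAUR23* fell by 2.68. The single *SAUR* gene called up-regulated, *AT4G34810* (2.18), was not called without any 1 of *bli* replicates 1, 2 or 3 or WT replicates 1 or 3. Of 21 tested *Aux/IAA* genes, which encode repressors that auxin both removes and induces, 6 were down-regulated and 13 lower and none was higher. The count of down-regulated genes was 10 without *bli* replicate 1. *IAA1* (AT4G14560) had 7.73, 4.42 and 6.09 FPKM in *bli*, against 22.2, 15.8 and 29.1 FPKM in WT (-1.85), and *IAA3* (listed as *SHY2*) fell by 1.47. Of 29 tested NPH3-domain genes, which act in phototropism and auxin-dependent organ formation, 19 were lower and 6 down-regulated, with *NPY4* at -1.53. With a pseudocount of 1 FPKM the 6 came to 2. Of 11 tested genes for membrane-associated kinase regulators, 4 were down-regulated, or 2 with this pseudocount. *MAKR1* had 4.32, 3.05 and 3.03 FPKM in *bli* and 15.3, 10.5 and 10.4 FPKM in WT (-1.76).

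Cell wall families moved in both directions. Of 22 tested expansin genes, which loosen the wall without cutting it, 10 were down-regulated (45.5%), with a median of -1.01. *EXPA8* (AT2G40610) had 13.97, 8.35 and 8.97 FPKM in *bli*, against 108.0, 66.7 and 97.8 FPKM in WT (-3.12, SE 0.23, adjusted p = 3.87e-06, limma). *EXPA11* fell by 2.18 and *EXPB3* by 1.84, whereas the expansin-like gene *EXLA1* had 35.3, 44.3 and 43.5 FPKM in *bli* and 7.44, 7.88 and 12.4 FPKM in WT (2.17). Xyloglucan endotransglucosylase genes (*XTH*), which cut and rejoin xyloglucan, had 7 rises and 4 falls among 25 tested. *XTR6* (AT4G25810) had 47.2, 65.9 and 57.6 FPKM in *bli*, against 4.91, 3.37 and 4.21 FPKM in WT (3.74), and *XTH24* (AT4G30270) had 339.4, 481.5 and 453.9 FPKM in *bli*, against 71.8, 71.8 and 62.2 FPKM in WT (2.62), whereas *XTH20* fell by 1.86. The 7 rises came to 4 without *bli* replicate 2, and the 4 falls to 2 without WT replicate 2, *bli* replicate 1 or *bli* replicate 2. Of 61 tested class III peroxidase genes, 7 were up-regulated and 14 down-regulated, and the falls came to 9 without *bli* replicate 2. *AT5G64120* had 588.9, 687.1 and 692.5 FPKM in *bli* and 139.2, 136.3 and 131.3 FPKM in WT (2.27), and *AT2G38380* had 41.0, 35.6 and 57.6 FPKM in *bli* and 143.4, 164.3 and 161.7 FPKM in WT (-1.83). Of 48 tested pectin lyase-like genes, 8 were down-regulated and 3 up-regulated, and of 11 tested genes of CAP proteins, relatives of PR1, 4 were down-regulated. In a list of 15 cell division genes, none was called and 5 were lower, with a median of -0.27, and the 5 came to 3 without WT replicate 1, WT replicate 3 or *bli* replicate 3.

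Photosynthesis genes were lower by a small amount. Of 64 tested genes of the photosystems and their antennae, 56 were lower (87.5%, against a background of 17.0%) but 4 were down-regulated, with a median of -0.65. Under quantile normalization the number of lower genes was 38. *LHCB2.3* (AT3G27690), a light-harvesting protein gene, had 868.5, 690.5 and 728.6 FPKM in *bli*, against 2644, 2266 and 2484 FPKM in WT (-1.70, SE 0.12, adjusted p = 2.53e-06, limma), with 595 bases under *AT3G27700* on the other strand. Of 11 Calvin cycle genes, all 11 were lower with a median of -0.66, and 7 under quantile normalization. *RCA*, which encodes Rubisco activase, was lower by 0.73 and *PRK*, the phosphoribulokinase gene, by 0.66 on the log2 scale. *RBCS2B* (-1.28) and *CA1* (-1.07) were the 2 called down-regulated, neither was called under quantile normalization, and *CA1* was not called without *bli* replicate 2. Of 13 chlorophyll synthesis genes, 10 were lower and 1 was higher (*PORA*, 0.79). The 5 genes used as leaf mesophyll markers, which come from the same pathways, had a summed FPKM of 27910 to 30020 in *bli* and 41300 to 45280 in WT.

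Flavonoid and glucosinolate genes also fell in part. Of 16 tested flavonoid genes, 7 were down-regulated and 10 lower and none was higher, with a median of -0.75. The 7 came to 4, and the 10 to 5, without WT replicate 1. *FLS1* (AT5G08640), the flavonol synthase gene, had 10.7, 9.20 and 11.5 FPKM in *bli*, against 30.4, 39.1 and 26.9 FPKM in WT (-1.60), and *MYB12*, a regulator of flavonol synthesis, had 0.625, 0.663 and 0.438 FPKM in *bli* and 2.37, 3.58 and 3.53 FPKM in WT (-2.26). The first enzyme of the pathway, *TT4*, fell by 1.17. The later anthocyanin genes *DFR* (-0.26) and *LDOX* (-0.51) did not pass the test. Of 20 tested B-box zinc finger genes, many of which act in light signalling, 6 were down-regulated and 1 up-regulated, with *BBX16* at 11.1, 5.16 and 7.19 FPKM in *bli* and 39.2, 28.6 and 29.2 FPKM in WT (-2.09). Of 16 tested genes of aliphatic glucosinolates, 3 were down-regulated. *MYB29* and *MYB76* are regulators and fell by 1.12 and 1.77, and *AOP2*, a side-chain enzyme gene, fell by 1.61, while synthesis genes such as *CYP79F1* (-0.27) and *CYP83A1* (-0.09) did not pass the test. Of 10 indole glucosinolate genes none was called, 1 was higher and 1 lower. Of 13 sulfur deficiency genes 2 were called down-regulated, and both calls were lost without WT replicate 2 or *bli* replicate 3 and 1 of them without WT replicate 1 or *bli* replicate 2.

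Floral genes changed in opposite directions. *FT* (AT1G65480), the mobile signal for flowering, had 10.7, 8.99 and 9.30 FPKM in *bli*, against 0.501, 0.314 and 0.869 FPKM in WT (3.97, SE 0.25, adjusted p = 1.43e-06, limma). The flowering repressor genes *MAF5* (AT5G65080), with 2.68, 4.55 and 2.93 FPKM in *bli* and 15.2, 13.7 and 15.6 FPKM in WT (-2.13), and *MAF4* (-1.88) fell. *FLC* had 0.468, 0.192 and 0 FPKM in *bli*, against 4.71, 3.90 and 3.69 FPKM in WT, and 6067 bases of the gene lie under *AT5G01675* on the other strand. *SVP*, another repressor gene, was lower by 0.73 on the log2 scale and *SOC1* (listed as *AGL20*) higher by 0.43, and *CO*, which acts upstream of *FT*, did not pass the test (0.67). In all, 1 of 8 tested flowering genes was up-regulated and 3 down-regulated.

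Of 15 listed developmental regulators silenced by Polycomb group proteins, 10 were tested, of which 4 were up-regulated and none down-regulated. *AP3* and *PI* averaged 0.104 and 0.209 FPKM in WT, under the filter of 0.5 FPKM. These 2 genes passed the filter only through mutant libraries, so the count is a description and is not set against the background. *SEP3* (AT1G24260), a floral organ MADS-box gene, had 34.2, 29.8 and 33.8 FPKM in *bli*, against 3.09, 6.40 and 3.67 FPKM in WT (2.93), and *PI* (AT5G20240), a petal and stamen identity gene, had 1.73, 2.43 and 1.39 FPKM in *bli* and 0.118, 0.442 and 0.0679 FPKM in WT (2.81). *AP3*, the partner of *PI*, had 1.05, 2.06 and 0.950 FPKM in *bli* and 0, 0.238 and 0.0732 FPKM in WT, and *CUC1* (1.25, adjusted p = 0.0465, limma) was not called in 12 of the 23 alternatives. When 1 was the least mean FPKM for testing, 1 of these genes was left up-regulated. Of 7 flower markers, *AP1* stayed at or under 0.202 FPKM in all 6 libraries and *AG* at or under 0.675 FPKM, so that their level rested almost wholly on *SEP3*, with a sum of 35.8 to 39.2 FPKM in *bli* and 3.99 to 7.999 FPKM in WT. Of 39 tested MADS-box genes, 5 were up-regulated (2 when 1 was the least mean FPKM) and 6 down-regulated. The same limit of the filter holds for these up-regulated genes, which include *AP3* and *PI*. *SHP1*, a carpel and fruit gene, had 2.03, 3.09 and 1.22 FPKM in *bli* and 0.532, 0.149 and 0.423 FPKM in WT (2.26). The seed regulator genes *LEC1*, *LEC2*, *FUS3* and *ABI3* did not pass the filter on low values. Seed storage genes differed between WT libraries, as 7 seed markers summed to 48.7 FPKM in WT replicate 1, against 0.394 FPKM in the lowest WT library, and to 0.544 to 0.657 FPKM in *bli*, and no tested seed marker was called.

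Other groups held few called genes or moved both ways. Of 317 tested ribosomal protein genes, 1 was up-regulated and none down-regulated, and 25 were higher and 24 lower. Under upper-quartile scaling 18 were higher and 38 lower, and the number higher was 15 without WT replicate 3 and 16 without *bli* replicate 2. The 1 called gene, *AT3G28500*, which encodes an acidic protein of the large subunit, had 4.49, 5.45 and 2.90 FPKM in *bli* and 0.541, 0.679 and 0.788 FPKM in WT (2.48). Of 15 tubulin genes none was called and 6 were lower. Of 47 tested histone genes, 1 was up-regulated and 2 down-regulated, while 23 were lower. The linker histone gene *HIS1-3*, which responds to drought, had 25.7, 26.9 and 27.5 FPKM in *bli*, against 4.77, 3.63 and 7.72 FPKM in WT (2.36). Of 6 DNA damage response genes, *PARP2* alone was called (1.01). It was not called without WT replicate 3 or *bli* replicate 2, under upper-quartile scaling, or with a pseudocount of 1 FPKM. Of 7 tested triterpene cluster genes, *MRN1* (AT5G42600), the marneral synthase gene, had 3.17, 2.13 and 2.56 FPKM in *bli* and 0.0823, 0.181 and 0.166 FPKM in WT (3.49), *CYP705A12* rose by 1.53, and the 4 thalianol cluster genes tested were not called. Families of specialised metabolism were mixed, with 20 rises and 16 falls among 157 tested cytochrome P450 genes, 5 and 4 among 51 glutathione transferase genes, 10 and 14 among 104 glycosyltransferase genes, and 6 and 6 among 27 beta-glucosidase genes. With a pseudocount of 1 FPKM there were 11 rises and 9 falls among the cytochrome P450 genes and 6 falls among the glycosyltransferase genes, which also had 9 falls under quantile normalization. Without WT replicate 2 the glutathione transferase rises were 2, and without *bli* replicate 3 the glycosyltransferase falls were 9. Of 25 tested aquaporin genes 1 was up-regulated and 3 down-regulated, and of 24 tested *CLE* peptide genes none was up-regulated and 4 were down-regulated, or 2 without *bli* replicate 2.

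**Figure D5:**
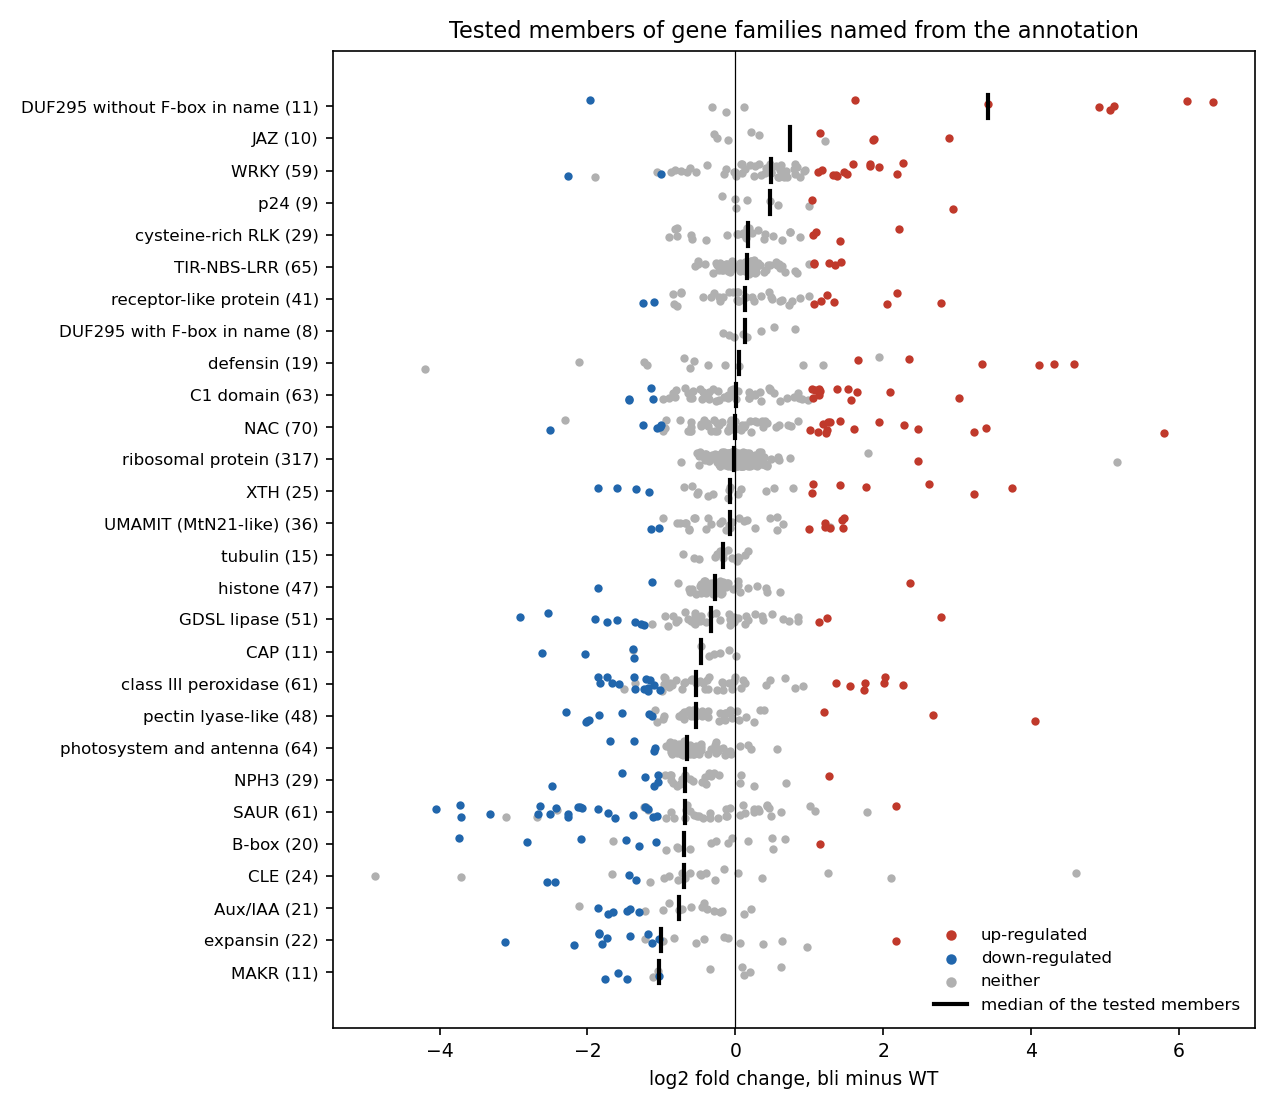
Log2 fold change (*bli* minus WT, x axis) of the tested members of gene families named from the annotation, 1 row per family with the number tested in brackets, ordered by the median (black bar). Up-regulated members are red, down-regulated members blue and others grey. DUF295 genes without F-box in the name have a median of 3.41, *SAUR*, expansin and photosystem genes have medians of -0.68, -1.01 and -0.65, and the 317 ribosomal protein genes cluster around 0.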

How the data were processed

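Per the methods, the authors aligned filtered reads to TAIR10 by TopHat. They deposited 1 table of FPKM per gene, for 4 genotypes with 3 libraries each. The submitters' processing notes name Bowtie 0.12.2 and the mouse build mm8, which the methods do not mention. Whether strand was used in counting is not given in the sources used here. FPKM hold no counts, so no counting error was computed. From the deposited FPKM, log2(FPKM + 0.1) of the 20645 genes with a mean of at least 0.5 over all 12 libraries was fitted with limma 3.58.1 in R 4.3.3 (mean-variance trend, all 4 genotypes in 1 model, 8 residual degrees of freedom), and 2-sided p-values were adjusted over all genes tested. The added 0.1 understates the change of weakly expressed genes. An exact permutation test of 3 libraries against 3 cannot go below p = 0.1.

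The members, the gene lists and the families were chosen with earlier results of these data known. Named genes were the mutated genes, the 12 largest rises and falls (mean of at least 2 FPKM, no overlap, no library at 0) and up to 4 members per list and direction (mean of at least 1 FPKM, no overlap), besides list members named for their role and those marked as chosen after their values were seen. Gene positions, promoters and products came from RefSeq TAIR10.1, to which 97.8% of gene identifiers matched. Alternatives were other pseudocounts, filters and scalings, a fit of the 2 groups alone, a replicate block and leaving out each library. On simulated data, 89 of 100 genes changed by 1.5 and 96 of 100 changed by 3 on the log2 scale were called among 20645 genes, as were 2 unchanged genes.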

Additional observations from a re-analysis of the deposited data

How the results depend on the processing

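The counts of up-regulated and down-regulated genes kept within 1.5 times their main values of 857 and 1048 in all 23 alternatives. They were 670 and 718 with a pseudocount of 1 FPKM, 996 and 1184 with no filter on low values, 957 and 891 under quantile normalization, and 802 and 1145 under upper-quartile scaling. With any 1 of the 12 libraries left out there were 774 to 875 up-regulated and 875 to 1156 down-regulated genes, and 2766 to 3622 higher and 2848 to 3564 lower genes. Deviations of same-numbered *bli* and WT libraries correlated at 0.0558, -0.0196 and 0.0578, so the numbers did not pair the samples, and a fit with the replicate block gave 856 and 1066 genes. Of the 274 genes named or eligible under the naming rule, 215 kept their call in every alternative and none changed its direction. The pseudocount of 1 FPKM ended the calls of 35 genes, more than leaving out *bli* replicate 2 (25 genes) or WT replicate 1 (20 genes), and the cause was not tested. FPKM give no counts, so the counting error of a value of 0 FPKM was not computed, and changes of weakly expressed genes rest on the pseudocount.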
